A study of Mus musculus with 6 samples.

Results

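A group of 41 antiviral genes was followed in mouse liver: type I interferon effectors, cytoplasmic and endosomal RNA sensors, the IRF and STAT factors that carry the interferon signal, and both chains of the type I interferon receptor. They were taken by gene symbol from a list of pathway genes, and all 41 were found among the 16426 genes listed in at least 1 of the 6 libraries. The livers came in 2 groups of 3. The first group came from mice given AAV8, a vector that enters hepatocytes efficiently, coding for a short hairpin RNA (shRNA) against S1pr2, a receptor for the lipid sphingosine-1-phosphate, and the second from mice given AAV8 coding for a scrambled shRNA. Mice of both groups had a mixed B6:sv129 background and were 7 to 12 weeks of age. The series text describes males that drank dexamethasone, a synthetic glucocorticoid, at about 0.84 mg/kg for 7 days. No single library is labelled for that drug. All 6 livers had thus received vector and hairpin, and no uninjected liver was analysed here. Nothing in the labels ties each replicate to an animal of its own, and the p-values therefore describe the spread among these 6 samples, which may be technical.

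Cells detect foreign RNA with RIG-I (gene Ddx58), MDA5 (Ifih1) and LGP2 (Dhx58) in the cytosol, which signal through the mitochondrial adaptor MAVS, and with Toll-like receptor 3 (Tlr3) in endosomes. IRF3 and IRF7 then switch on type I interferon genes, and the secreted interferon acts through the IFNAR1 and IFNAR2 receptor on a complex holding STAT2 and IRF9 that binds interferon-stimulated response elements (ISREs) in the promoters of many genes. The products of these genes block viral RNA at several steps, and glucocorticoids are known to dampen parts of the response.

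The promoters of 8 members are shown because each holds a match to the core of the ISRE in the 160 bases before its first listed start, and Oas1g, which also does, is left out as a close copy of Oas1a. Each line gives these bases 5′ to 3′ on the strand of the gene, from RefSeq on GRCm38.p6, with matches to GAAANNGAAA on either strand (TTTCNNTTTC on the other) in capitals and overlapping matches run together.
Isg15, chr4:156200819-156200978, minus strand: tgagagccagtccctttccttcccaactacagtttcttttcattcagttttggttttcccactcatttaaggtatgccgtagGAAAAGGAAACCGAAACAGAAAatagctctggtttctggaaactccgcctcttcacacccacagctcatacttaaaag
Ifit1, chr19:34640729-34640888, plus strand: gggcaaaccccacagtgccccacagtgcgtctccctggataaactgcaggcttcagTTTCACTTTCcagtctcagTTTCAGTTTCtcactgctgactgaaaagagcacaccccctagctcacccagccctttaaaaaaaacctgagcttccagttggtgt
Ifit3, chr19:34583369-34583528, plus strand: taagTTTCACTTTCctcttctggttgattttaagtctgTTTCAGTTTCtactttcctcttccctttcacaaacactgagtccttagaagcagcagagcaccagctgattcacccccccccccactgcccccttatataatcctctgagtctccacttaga
Oas1a, chr5:120907526-120907685, minus strand: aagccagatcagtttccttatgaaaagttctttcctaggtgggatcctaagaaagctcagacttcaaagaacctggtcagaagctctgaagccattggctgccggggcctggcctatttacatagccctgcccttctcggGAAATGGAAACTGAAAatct
Rsad2, chr12:26456453-26456612, minus strand: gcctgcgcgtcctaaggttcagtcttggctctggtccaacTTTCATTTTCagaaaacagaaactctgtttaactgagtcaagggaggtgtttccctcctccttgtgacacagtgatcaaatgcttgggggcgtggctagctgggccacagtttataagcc
Bst2, chr8:71537473-71537632, minus strand: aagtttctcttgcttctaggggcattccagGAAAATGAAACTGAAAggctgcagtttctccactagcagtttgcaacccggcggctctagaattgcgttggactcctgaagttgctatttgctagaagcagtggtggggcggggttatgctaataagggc
Apol9a, chr15:77411081-77411240, minus strand: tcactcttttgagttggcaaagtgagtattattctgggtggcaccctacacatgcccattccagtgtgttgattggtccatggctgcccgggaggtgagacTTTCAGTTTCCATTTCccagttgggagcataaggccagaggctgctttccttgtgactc
Apol9b, chr15:77728912-77729071, plus strand: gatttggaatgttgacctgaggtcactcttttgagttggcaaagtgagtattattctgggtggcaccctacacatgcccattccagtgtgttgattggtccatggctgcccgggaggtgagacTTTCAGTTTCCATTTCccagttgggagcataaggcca
Of the 41 members, 32 had an entry in the RefSeq promoter table, and in 13 of these (40.6%) the window from 250 bases before to 50 bases after a start held the motif, against 3.99% of the 27025 genes in the table. A match is a description of letters, not a measured binding site. In Isg15 there were 3 overlapping matches, and Ifit1 and Ifit3 each held 2 that were apart from each other. Where the Apol9a and Apol9b windows overlapped in an alignment, all 138 aligned bases were identical. The other members with a match were Ddx58, Ifih1, Eif2ak2, Stat2 and Oas1g.

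Values are given as CPM, the expected count relative to the size of its library after TMM scaling, and a gene was called when its Benjamini-Hochberg adjusted p over all genes tested was under 0.05 in the edgeR quasi-likelihood test. The libraries held between 16558775 and 17410160 expected counts. The targeted gene S1pr2 had 3.04, 2.20 and 2.22 CPM in S1PR2 shRNA livers 1 to 3 and 4.41, 5.23 and 6.66 CPM in scramble livers 1 to 3, with no overlap (log2 fold change -1.12, SE 0.24, edgeR adjusted p = 0.0301). That call was lost without S1PR2 shRNA liver 2 or 3, without scramble liver 2 or 3, and on FPKM, with adjusted p values up to 0.117. It was also lost when the replicate number was added to the edgeR model as a block (adjusted p = 0.0684). Summed hepatocyte markers, albumin among them, ran from 92626 to 135485 CPM in S1PR2 shRNA livers and from 137539 to 169819 CPM in scramble livers. Most of that sum was albumin (Alb), with 56835, 84021 and 85603 CPM against 103256, 108503 and 129028 CPM in scramble livers. Of the 10 hepatocyte markers 0 passed in edgeR, while DESeq2 called 1 higher and 3 lower. Their log2 fold changes lay above 0 in 3 of the 10, with Apoa1 at 1.08 and Alb at -0.59.

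Apol9a, Apol9b, Oas1a, Ifit1 and Zbp1 led the members that rose in the S1PR2 shRNA livers, and neither receptor chain passed the test. Of the 41 members 14 rose, 0 fell, 25 did not pass and 2 (Oas2 and Mx1) had too few counts to be tested. Over all 12230 genes tested, 937 (7.66%) were called, 369 higher (3.02%) and 568 lower (4.64%), and the higher ones made up 51.5% of the calls with upper-quartile factors and 68.6 to 69.4% on FPKM. No member was called lower by DESeq2 or limma-voom either, and at an unadjusted p under 0.05 only Ifnar1 was lower in the edgeR test, with 27 members higher. Zbp1, Oas1a and Ifi44 entered the test through the S1PR2 shRNA livers alone, since none of their scramble values reached the count filter. Of the 36 tested members with at least 1 scramble liver at that filter, 12 rose. The median log2 fold change was 0.81 over the 39 tested members and 0.01 over all genes tested, and 34 of the 39 lay above 0, against 51.4% of all genes. In 29 members every S1PR2 shRNA liver was above every scramble liver, which held for 15.1% of all genes. This count, the 34 above 0 and the median keep Zbp1, Oas1a and Ifi44, whose direction and lack of overlap follow from how they passed the filter. Bulk RNA cannot separate more cells of a type that carries these transcripts from more RNA per cell.

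**Figure D1:**
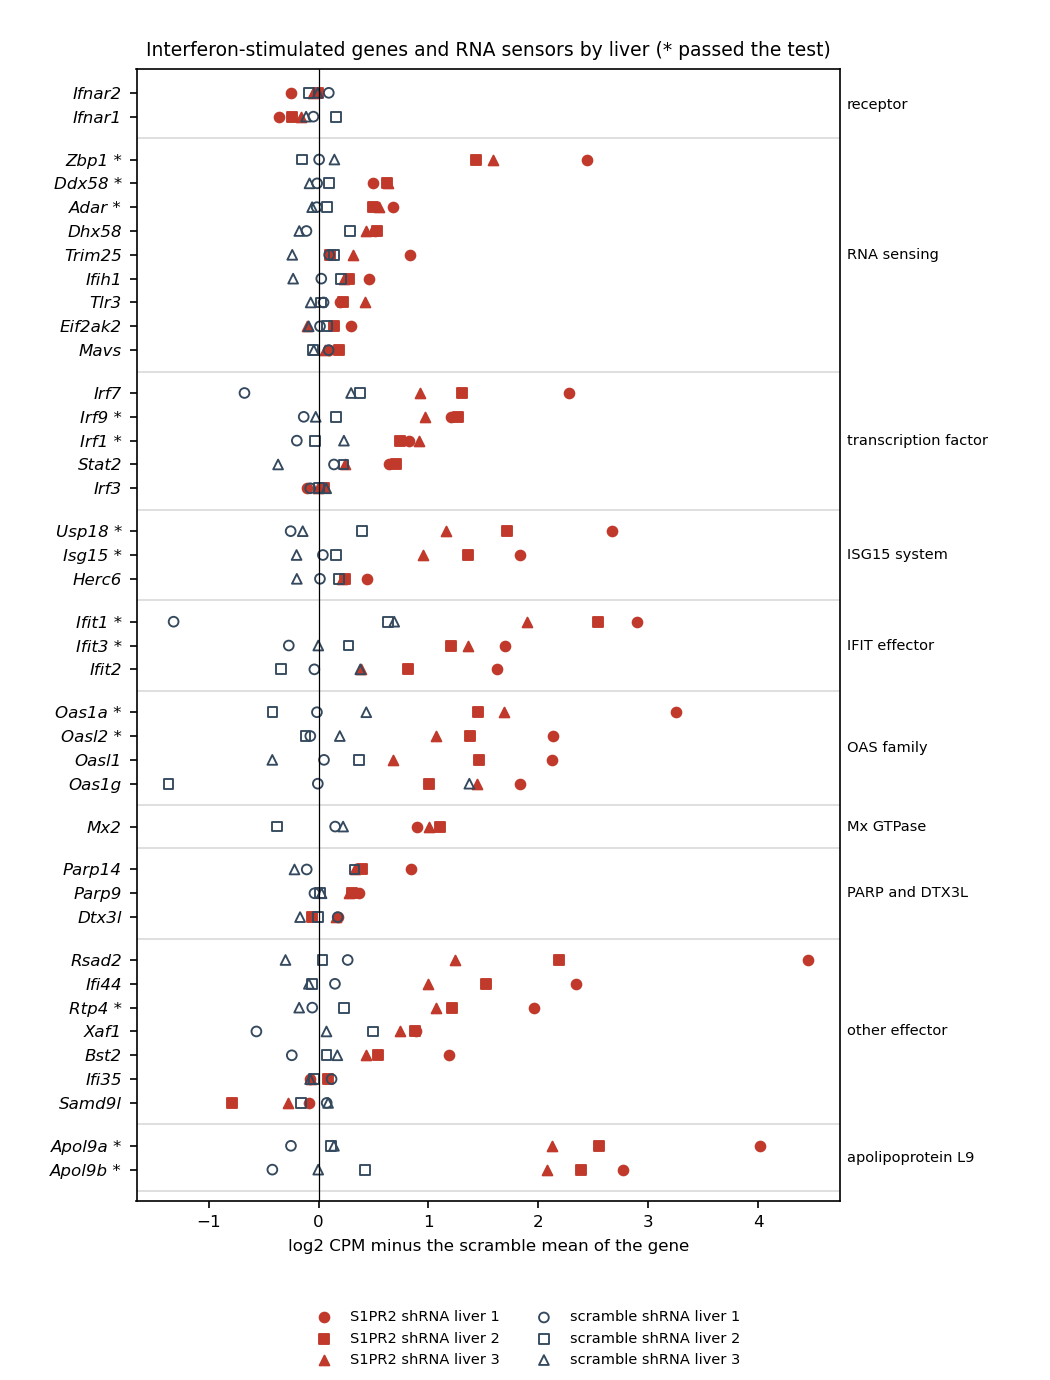
Each of the 39 tested members by liver, as log2 CPM minus the scramble mean of the gene (x axis), grouped by role, with filled symbols for the 3 S1PR2 shRNA livers, open symbols for the 3 scramble livers and an asterisk for the 14 members that passed the test. The filled symbols lie to the right of all open ones for the IFIT genes, Isg15, Usp18, Oas1a, Oasl1, Oasl2, Apol9a and Apol9b, and on top of the open ones for Ifnar2, Irf3, Ifi35 and Mavs.

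Neither chain of the receptor passed the test. Ifnar1 had 32.8, 35.6 and 37.6 CPM in S1PR2 shRNA livers and 40.7, 47.0 and 38.9 CPM in scramble livers (log2 fold change -0.25, SE 0.11, edgeR adjusted p = 0.204). The groups did not overlap, yet the difference did not pass the test. Ifnar2 had 74.5, 88.0 and 85.4 CPM against 94.4, 83.4 and 88.1 CPM in scramble livers, and here the groups overlapped (log2 fold change -0.10, edgeR adjusted p = 0.633, with a sign that turned on FPKM). On the FPKM scale, which divides by transcript length, Ifnar2 had the highest scramble mean of all 41 members, at 69.4 FPKM, with 70.7 FPKM in the S1PR2 shRNA livers.

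Of the 9 members that sense or process RNA or act with its sensors, 3 rose. Ddx58, which encodes RIG-I, had 39.8, 43.3 and 43.6 CPM in S1PR2 shRNA livers and 27.9, 30.1 and 26.6 CPM in scramble livers (log2 fold change 0.58, SE 0.10, edgeR adjusted p = 0.0147). Adar, which encodes an enzyme that turns adenosine into inosine in double-stranded RNA, had 17.9, 15.8 and 16.4 CPM against 11.0, 11.8 and 10.7 CPM in scramble livers (0.58, SE 0.11, edgeR adjusted p = 0.0194). Both genes were close to even within each group and shared no value between the groups. Zbp1, a sensor of left-handed Z-form RNA that can start necroptosis, was much lower in level but more different, with 2.83, 1.35 and 1.52 CPM against 0.429, 0.373 and 0.484 CPM in scramble livers (2.14, SE 0.42, edgeR adjusted p = 0.0241). Its scramble values rested on 6 to 8 counts per library.

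The other members of the RNA-sensing group did not pass. Ifih1, the MDA5 gene, had 29.8, 26.1 and 25.4 CPM in S1PR2 shRNA livers and 21.996, 24.95 and 18.4 CPM in scramble livers (0.32, edgeR adjusted p = 0.195). Dhx58, the LGP2 gene, had 5.62, 5.70 and 5.33 CPM against 3.61, 4.79 and 3.45 CPM (0.49, edgeR adjusted p = 0.153), and Tlr3 had 7.03, 7.17 and 8.26 CPM against 6.31, 6.22 and 5.81 CPM in scramble livers (0.29, edgeR adjusted p = 0.251). In these 3 genes every S1PR2 shRNA liver lay above every scramble liver by a small margin. Mavs, the adaptor downstream of RIG-I and MDA5, had 70.0, 74.7 and 68.2 CPM against 69.8, 63.3 and 63.5 CPM, with overlap (0.11, edgeR adjusted p = 0.518). Eif2ak2, which encodes PKR, the kinase that stops translation on binding double-stranded RNA, had 15.5, 13.9 and 11.7 CPM against 12.7, 13.3 and 11.8 CPM (0.12, edgeR adjusted p = 0.624). Trim25, a ubiquitin ligase that acts on RIG-I, had 78.9, 47.6 and 55.1 CPM against 47.3, 48.8 and 37.5 CPM in scramble livers (0.44, edgeR adjusted p = 0.220). S1PR2 shRNA livers 1 and 3 were above the scramble range in Trim25, and liver 2 was inside it.

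Among the 5 transcription factors, Irf9 and Irf1 rose. Irf9, the DNA-binding partner of STAT2, had 18.5, 19.3 and 15.7 CPM in S1PR2 shRNA livers and 7.23, 8.90 and 7.81 CPM in scramble livers, a 2.23-fold difference (log2 fold change 1.16, SE 0.13, edgeR adjusted p = 0.00531). Irf1, a factor induced by both interferon types that also acts on its own, had 21.4, 20.3 and 22.95 CPM against 10.5, 11.8 and 14.2 CPM (0.82, SE 0.13, edgeR adjusted p = 0.0127). The lowest S1PR2 shRNA value was well above the highest scramble value in both. Irf7, the inducible factor that amplifies interferon production, had 24.1, 12.2 and 9.31 CPM against 3.00, 6.35 and 5.99 CPM in scramble livers (1.57, SE 0.44, edgeR adjusted p = 0.0902). It did not pass, and its values were spread widely within both groups. Stat2 had 33.8, 35.4 and 25.7 CPM against 23.9, 25.4 and 16.8 CPM (0.52, SE 0.19, edgeR adjusted p = 0.132). Irf3, the constitutive factor that RNA sensors activate, had 41.6, 46.2 and 44.8 CPM against 42.5, 44.99 and 47.0 CPM in scramble livers. Its log2 fold change was -0.02 (SE 0.09, edgeR adjusted p = 0.921), and the sign turned with upper-quartile factors, on FPKM and without S1PR2 shRNA liver 1 or scramble liver 3.

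The ISG15 system attaches a ubiquitin-like protein to other proteins. Isg15 itself had 5.82, 4.16 and 3.10 CPM in S1PR2 shRNA livers and 1.59, 1.74 and 1.33 CPM in scramble livers (log2 fold change 1.49, SE 0.29, edgeR adjusted p = 0.0241). Usp18, which removes ISG15 and restrains signalling at IFNAR2, had 10.1, 5.14 and 3.45 CPM against 1.23, 1.99 and 1.33 CPM (2.04, SE 0.43, edgeR adjusted p = 0.0320). Liver 1 of the S1PR2 shRNA group was the highest of the 6 in both genes. Herc6, the ligase that attaches ISG15 in mice, had 10.4, 9.06 and 8.90 CPM against 7.72, 8.71 and 6.66 CPM in scramble livers and did not pass (0.30, edgeR adjusted p = 0.263).

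IFIT proteins bind viral RNA that lacks the host cap marks, and 2 of the 3 IFIT members rose. Ifit1 had 4.35, 3.37 and 2.11 CPM in S1PR2 shRNA livers and 0.123, 0.809 and 0.847 CPM in scramble livers (log2 fold change 2.45, SE 0.56, edgeR adjusted p = 0.0404). Ifit3 had 5.36, 3.797 and 4.22 CPM against 1.29, 1.93 and 1.57 CPM (1.48, SE 0.25, edgeR adjusted p = 0.0161). Both have paired ISRE matches in the sequences above, where Bst2 and Rsad2, which did not pass, also have matches. Irf1, Irf9, Adar and Oasl2 were called with no match in their windows. A link between the motif and the calls was not tested. Ifit2 had 3.74, 2.08 and 1.52 CPM against 1.10, 0.871 and 1.51 CPM in scramble livers, where the lowest S1PR2 shRNA value and the highest scramble value nearly met (1.08, edgeR adjusted p = 0.151).

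The OAS enzymes make 2′-5′-linked oligoadenylate, which activates RNase L. Oas1a rose, with 4.55, 1.22 and 1.46 CPM in S1PR2 shRNA livers and 0.368, 0.249 and 0.545 CPM in scramble livers (log2 fold change 2.63, SE 0.63, edgeR adjusted p = 0.0455). The OAS-like gene Oasl2 also rose, with 6.37, 3.74 and 2.99 CPM against 1.29, 1.24 and 1.57 CPM (1.67, SE 0.33, edgeR adjusted p = 0.0253). Oasl1, whose product in mice restrains translation of Irf7, had 6.58, 4.10 and 2.34 CPM against 1.47, 1.87 and 1.03 CPM in scramble livers without passing (1.58, edgeR adjusted p = 0.0589, with 0.00792 by DESeq2 and 0.00792 to 0.162 over all alternatives). Oas1g, a close copy of Oas1a, had under 1 CPM in every liver (edgeR adjusted p = 0.377). The untested Oas2 had 2.63, 0.674 and 0.410 CPM against 0.184, 0.187 and 0.545 CPM in scramble livers, so that S1PR2 shRNA liver 1 was far above the rest and liver 3 inside the scramble range. Mx1 and Mx2 encode dynamin-like GTPases that trap viral particles, and many inbred mouse strains carry a defective Mx1. Mx2 had 1.52, 1.78 and 1.64 CPM against 0.858, 0.560 and 0.908 CPM (1.07, SE 0.32, edgeR adjusted p = 0.0846), while Mx1 had at most 14.5 counts in any library.

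Both apolipoprotein L9 genes rose, by more than most members. Apol9b had 61.9, 47.4 and 38.2 CPM in S1PR2 shRNA livers and 6.68, 12.1 and 8.96 CPM in scramble livers, a 5.33-fold difference (log2 fold change 2.41, SE 0.26, edgeR adjusted p = 0.00531). Apol9a had 57.5, 20.8 and 15.5 CPM against 2.88, 3.73 and 3.81 CPM (3.17, SE 0.58, edgeR adjusted p = 0.0335, but 0.07 with no count filter and 1.2e-10 to 0.117 over all alternatives). Even the lowest S1PR2 shRNA value was far above the highest scramble value in each. Both had fractional counts in all 6 libraries, so the split of reads between the pair is uncertain. Their FPKM means were 34.5 for Apol9b and 22.96 for Apol9a in S1PR2 shRNA livers and 5.77 and 2.23 in scramble livers, which made them the only called members above 10 FPKM as a mean over all livers.

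Of the remaining effectors Rtp4, a transmembrane protein gene strongly induced by interferon, rose, with 10.8, 6.37 and 5.74 CPM in S1PR2 shRNA livers and 2.57, 3.17 and 2.36 CPM in scramble livers (2.83-fold, log2 SE 0.28, edgeR adjusted p = 0.0205). Rsad2 encodes viperin, which makes a chain-terminating nucleotide. It had the largest log2 fold change of the tested members, 3.41, but also the largest SE, 0.99, and did not pass (edgeR adjusted p = 0.104). Its values were 21.0, 4.29 and 2.17 CPM against 1.04, 0.871 and 0.666 CPM, and it passed without S1PR2 shRNA liver 1 (1.90, edgeR adjusted p = 0.0456, with 4.12e-05 to 0.252 over all alternatives). Bst2, which encodes tetherin, a protein that holds budding virus at the cell surface, had 90.6, 57.8 and 53.7 CPM against 33.6, 41.8 and 44.8 CPM in scramble livers (0.75, SE 0.22, edgeR adjusted p = 0.0830). In both genes the groups did not overlap. Ifi44 (2.09, edgeR adjusted p = 0.0503) and the apoptosis-linked Xaf1 (0.81, edgeR adjusted p = 0.151) were likewise higher in every S1PR2 shRNA liver without passing. Parp9 (0.32, edgeR adjusted p = 0.0663) and Parp14 (0.53, edgeR adjusted p = 0.138), ADP-ribosyltransferase genes, had small positive values, as had Dtx3l (0.09, edgeR adjusted p = 0.716), the ubiquitin ligase partner of PARP9. Ifi35 (-0.02, edgeR adjusted p = 0.928, with a sign that turned with upper-quartile factors, on FPKM and without S1PR2 shRNA liver 1 or scramble liver 1) and Samd9l (-0.36, edgeR adjusted p = 0.291), a restriction factor for poxviruses, had overlapping groups.

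**Figure D2:**
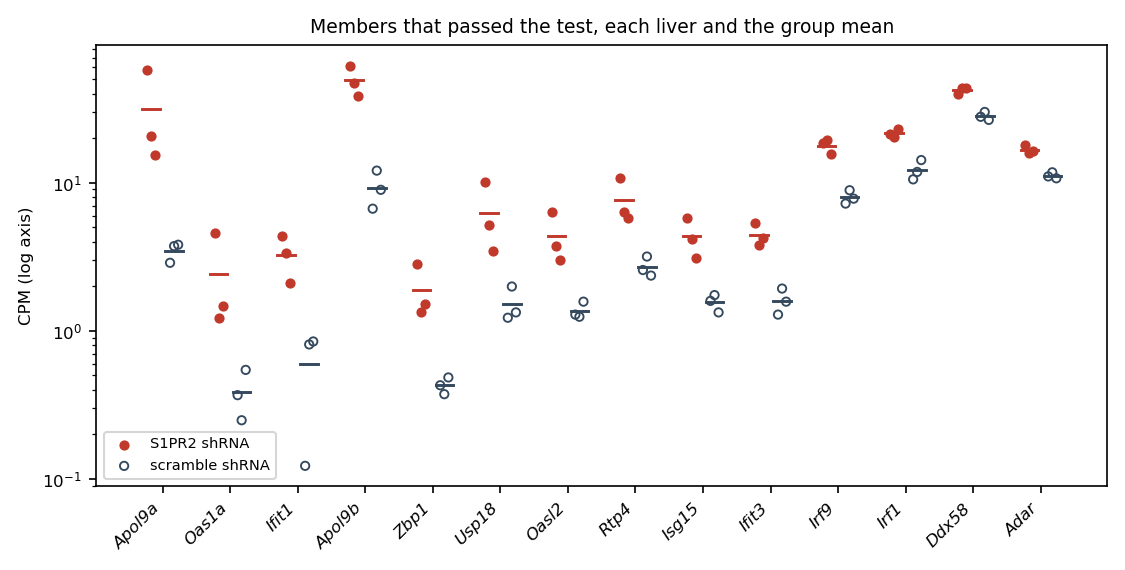
The 14 members that passed the test, in order of their log2 fold change from left to right, with each liver as a point and each group mean as a line in CPM on a log axis, filled for S1PR2 shRNA and open for scramble shRNA. No scramble point reaches the lowest S1PR2 shRNA point of its gene, and the Irf1, Irf9, Ddx58 and Adar points are tight while those of Apol9a and Oas1a are drawn apart by 1 liver.

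The S1PR2 shRNA livers differed among themselves. Of the 39 tested members, 26 had their highest value in S1PR2 shRNA liver 1, 5 in liver 2 and 3 in liver 3. Relative to the scramble mean, the average over members was 1.29, 0.85 and 0.72 log2 units in S1PR2 shRNA livers 1 to 3 and -0.09, 0.06 and 0.03 in scramble livers 1 to 3. The ratio of liver 1 to the mean of livers 2 and 3 ran from 0.916 to 3.39 over the called members, with 4 below 1.2 (Ddx58, Irf1, Irf9 and Adar) and 8 at 1.5 or more. Oas1a (3.39), Apol9a (3.17) and Usp18 (2.34) were the most uneven of them, and Rsad2, which was not called, had a ratio of 6.51. These 4 even genes encode a sensor, an editing enzyme and both called transcription factors.

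**Figure D3:**
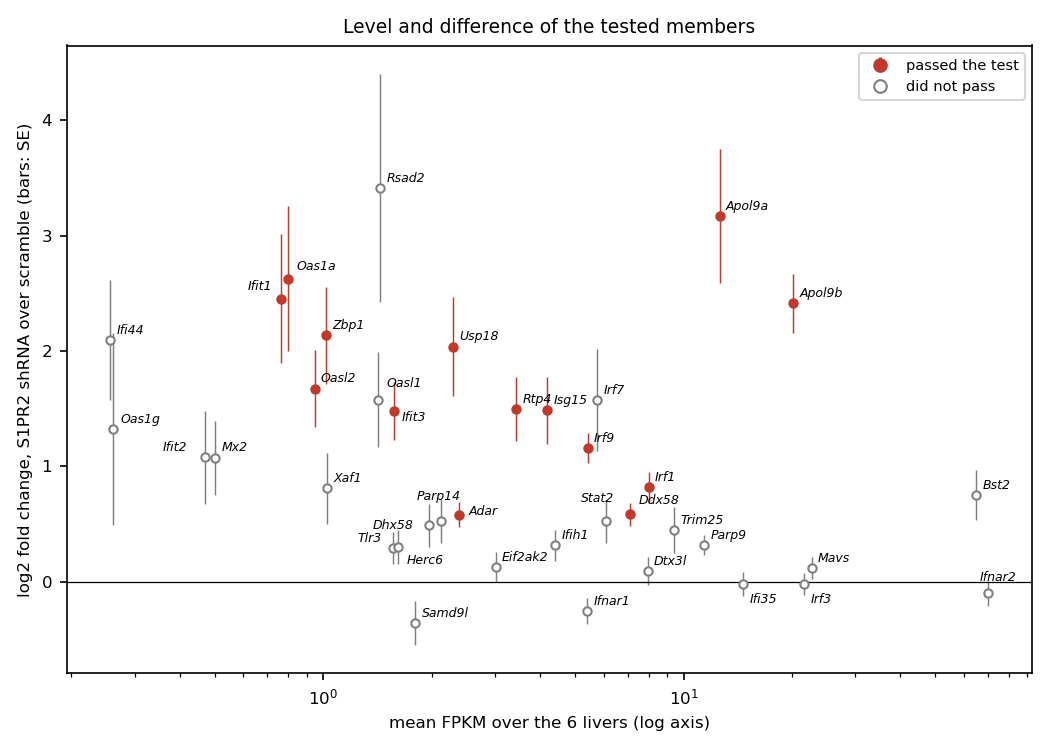
Log2 fold change of S1PR2 shRNA over scramble livers with its SE (y axis) against the mean FPKM over the 6 livers on a log axis (x axis) for the 39 tested members, with called members filled. Of the 8 members above 10 FPKM, Ifnar2, Irf3, Mavs and Ifi35 sit near 0. Apol9a and Apol9b are the filled points, and both were under 10 FPKM in scramble livers.

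Level and difference were related loosely across members. Of the 8 members with a mean of 10 FPKM or more, Ifnar2, Irf3, Mavs, Ifi35, Parp9 and Bst2 did not pass and Apol9a and Apol9b rose, and of the 31 members under 10 FPKM 12 rose. The mean is taken over both groups, so it holds part of the difference, and Apol9a and Apol9b reached 10 FPKM only through the S1PR2 shRNA livers. The members at 10 FPKM or more by scramble mean (Ifnar2, Bst2, Irf3, Mavs and Ifi35) did not pass. Spearman's rho between the mean FPKM over both groups and log2 fold change was -0.44 over the 39 genes, which share the same 6 libraries. The fold changes of low genes are the least precise. In scramble livers Rsad2 and Ifit1 were both at 0.213 FPKM and Oas1a at 0.190 FPKM, near the lower end of detection, while Apol9a and Apol9b, with similarly large folds, were at 2.23 and 5.77 FPKM there.

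Interferon transcripts themselves were at the limit of detection. Of 21 interferon genes looked up, 3 were listed in any library, with a total of 1 count in the S1PR2 shRNA livers (Ifnb1, liver 3) and 2.33 counts in the scramble livers (Ifna12 and Ifnz). For a gene not listed, a count of 0 allows up to 3 counts per library, or 0.172 to 0.181 CPM before TMM scaling. A lower level was thus not detectable at this depth, and this limit covers counting error only. Among 15 tested genes of receptor signalling 0 passed in the edgeR test, with 2 lower and 0 higher at an unadjusted p under 0.05, 1 lower by DESeq2 and 0 by limma-voom. The smallest p values there belonged to Pias1 (-0.35, SE 0.12), a SUMO ligase gene, the repressor Irf2 (-1.01, edgeR adjusted p = 0.135) and the receptor kinase Jak1 (0.31, edgeR adjusted p = 0.208). Among 22 further genes of nucleic acid sensing 0 passed in edgeR, with 3 higher at an unadjusted p under 0.05, 2 higher by DESeq2 and 0 by limma-voom. Zc3hav1, the zinc-finger antiviral protein (0.60, edgeR adjusted p = 0.0639), Unc93b1, which escorts endosomal Toll-like receptors (0.50, edgeR adjusted p = 0.0718), and the IRF3 kinase Ikbke (0.58, edgeR adjusted p = 0.0927) came closest.

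A second list of 40 tested interferon-stimulated genes outside the 41 had 4 that rose and 0 that fell, against 3.02% of all genes called higher. Of the 40 values 35 lay above 0, against 51.4% of all genes, with a median log2 fold change of 0.57. No scramble value of Cxcl10 or Ifit3b reached the count filter, so both entered the test through the S1PR2 shRNA livers alone. The 35 and the median keep both genes, whose direction follows from how they passed the filter. One gene was lower at an unadjusted p under 0.05, and 0 were called lower by DESeq2 or limma-voom. Helz2, a nuclear helicase gene, had 75.1, 74.0 and 55.1 CPM in S1PR2 shRNA livers and 33.6, 34.6 and 30.3 CPM in scramble livers (1.05, edgeR adjusted p = 0.00749). Trim14, which binds MAVS, had 44.2, 57.0 and 50.6 CPM against 19.6, 28.0 and 17.5 CPM (1.22, edgeR adjusted p = 0.0120). Phf11d (1.63, edgeR adjusted p = 0.0312) and Pml, the scaffold of nuclear bodies (0.58, edgeR adjusted p = 0.0213), rose as well.

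Markers of other cell types are given for the same livers. The 11 Kupffer cell and macrophage markers summed to 403, 211 and 206 CPM in S1PR2 shRNA livers 1 to 3 and 145, 149.6 and 269.7 CPM in scramble livers 1 to 3, and 0 passed in edgeR, with 1 higher at an unadjusted p under 0.05, 1 higher by DESeq2 and 0 by limma-voom. S1PR2 shRNA liver 1 was thus highest in both the macrophage markers and the members. The log2 fold changes of all 11 macrophage markers lay above 0 (median 0.50), against 51.4% of all genes tested. Scramble liver 3 had a larger macrophage sum than S1PR2 shRNA livers 2 and 3. Its mean over the members was 0.03 log2 units, with 0.85 and 0.72 in those livers. Of the 9 endothelial markers 4 rose (Kdr, Cdh5, Tie1 and Tek), against 3.02% of all genes tested. Of the 9 values 8 lay above 0. Lyve1 was lower (-0.83, edgeR adjusted p = 0.227), and Pecam1 (0.19) and Clec4g (0.16) had overlapping groups. The sums of all 9 were 271, 270.5 and 243 CPM in S1PR2 shRNA livers and 201, 216 and 214 CPM in scramble livers. T and NK cell markers summed to 1.52 to 1.96 CPM against 0.613 to 0.847 CPM in scramble livers, with 1 of 12 at 0 in all libraries. B cell markers were at 0.0585 to 0.612 CPM in S1PR2 shRNA livers and 0.0613 to 0.249 CPM in scramble livers, with 1 of 5 at 0. Siglech, the defining marker of plasmacytoid dendritic cells, had 0.152, 0.245 and 0.176 CPM against 0.123, 0.0622 and 0.0605 CPM in scramble livers, and the 6 markers of that list summed to 4.65 to 23.7 CPM against 1.87 to 42.8 CPM. Most of that sum was Ly6d, with 23.3, 3.25 and 4.39 CPM against 42.0, 1.37 and 3.45 CPM in scramble livers. The 6 conventional dendritic cell markers summed to 3.63 to 5.26 CPM against 3.24 to 4.12 CPM in scramble livers, and the neutrophil markers to 5.33 to 7.08 CPM against 3.43 to 7.65 CPM, with 2 of 8 at 0 in all libraries. For the markers of every cell type listed, hepatocytes included, their part in the differences of the members was not tested.

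**Figure D4:**
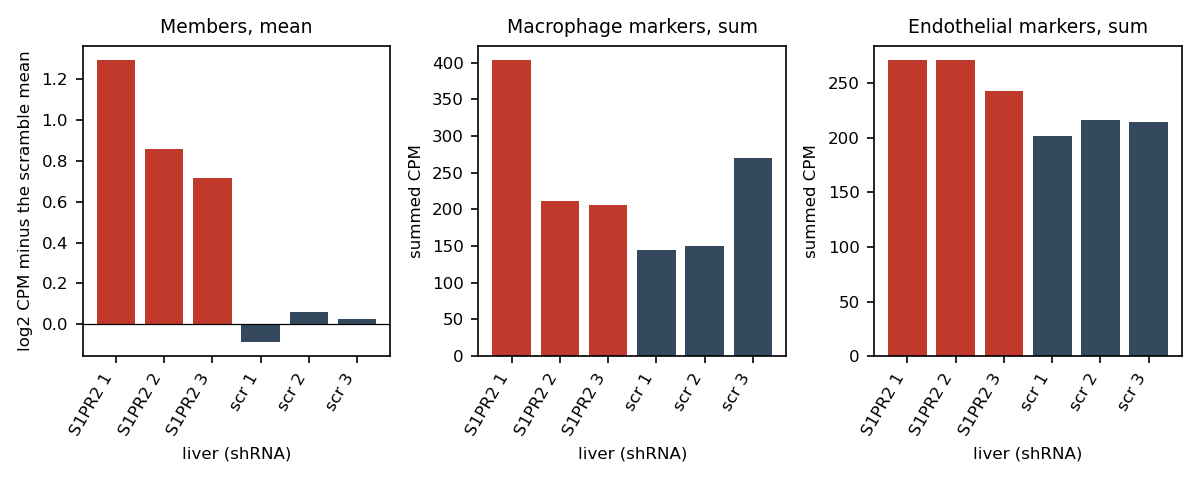
Bars for each liver, with the 3 S1PR2 shRNA livers on the left of each panel and the 3 scramble livers (scr) on the right, showing the mean of the 39 tested members in log2 CPM relative to the scramble mean and the summed CPM of 11 macrophage and 9 endothelial markers. Every S1PR2 shRNA bar is above every scramble bar for the members, and scramble liver 3 lies above S1PR2 shRNA livers 2 and 3 in macrophage markers. A link between the panels was not tested.

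With 3 livers a group, single libraries decided many calls. The number of members called higher was 11, 4 and 8 without S1PR2 shRNA liver 1, 2 or 3, against 2.16, 0.625 and 1.18% of all genes called higher in the same fits. Of these members, 10, 4 and 7 were among the 14 called with all livers. Without scramble liver 1, 2 or 3 the number called higher was 6, 4 and 3, all among the 14, against 1.59, 1.26 and 1.13% of all genes. Irf9 and Apol9b passed in all 6 of these fits, with adjusted p values of at most 0.0317 and 0.0322 in edgeR. Irf1 was the other member that passed without scramble liver 3, and Irf1 and Ifit3 each passed in 4 of the 6 fits. Zbp1 and Oas1a passed in none of them, with edgeR adjusted p values from 0.0529 to 0.0825 for Zbp1 and from 0.0668 to 0.133 for Oas1a. For the other 8 called members (Ddx58, Adar, Isg15, Usp18, Ifit1, Oasl2, Rtp4 and Apol9a) between 1 and 3 of the fits passed, and each was lost in the others. The log2 fold changes of the 14 members stayed positive in every such fit. As none of the 14 had overlapping groups, leaving out 1 liver could hardly have turned a sign. With all 6 livers, limma-voom did not call Ifit1 (adjusted p = 0.0529), Oasl2 (0.0535), Usp18 (0.0781) or Oas1a (0.103). Oas1a also missed the threshold in all 3 limma fits on FPKM, with adjusted p values from 0.0552 to 0.162, and passed in 6 of its 17 alternatives. Zbp1, Usp18 and Oasl2 were lost on FPKM with a pseudocount of 1. Adar, Isg15, Ifit1 and Rtp4 were lost there as well when no FPKM filter was used.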

How the data were processed

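Liver RNA of 3 S1PR2 shRNA and 3 scramble shRNA libraries was sequenced on a DNB platform, per the labels. The deposited tables hold an expected count per gene, the estimated number of fragments, and FPKM scaled by the authors to transcript length and mapped fragments. The submitters' processing notes name mm9 and, with no role or order, RSEM 1.2.12, DESeq2, Bowtie2 and HISAT2. Neither read filters nor strand handling could be read from these notes, so overlapping antisense transcripts cannot be separated. Of the 41 members, 20 had fractional expected counts in 3 or more libraries, where reads are shared with related genes, and 10 of these were called.

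Expected counts were rounded, with a gene not listed taken as 0. Genes passed filterByExpr (minimum count 10), were scaled by TMM (trimmed mean of M-values) and compared in edgeR 4.0.16 (R 4.3.3) by the two-sided quasi-likelihood test with group as the only factor, robust dispersion and Benjamini-Hochberg adjustment. The SE is the absolute log2 fold change divided by the square root of F. Log2 CPM used a prior count of 2. Alternatives were DESeq2 1.42.0, limma 3.58.1 (voom, and log2 FPKM with a pseudocount of 0.1 or 1), other factors and filters, a replicate block and each liver left out. Chi-square per degree of freedom between pairs of libraries was 20.1 to 193, so none was a copy. Every member is named, with values per liver for called members, receptors, sensors and factors, and of each pathway list the called genes or the 3 with the smallest p. The members and lists were chosen with earlier results of these data known. Promoter windows came from RefSeq on GRCm38.p6, matched by Entrez gene ID. They are not on the mm9 build of the counts. A further motif that was searched is not reported here.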

Additional observations from a re-analysis of the deposited data

How the results depend on the processing

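The 14 members called higher were all called with DESeq2 size factors, upper-quartile factors, a mean of at least 1 CPM as filter, the robust option off and the DESeq2 test, which called 18 members. Limma-voom called 10 and no filter on counts 13. On log2 FPKM 13 (pseudocount 0.1), 11 (pseudocount 1) and 7 (pseudocount 1, no filter on FPKM) were called. Of these, 13, 10 and 6 were among the 14. In the same fits the median of the members was 0.93, 0.50 and 0.49, where that of all genes was 0.16, 0.10 and 0.06. The numbers of members (3 to 11), of all genes called (231 to 643, against 937) and of other pathway genes called higher (3 to 8, against 12) fell when a liver was left out, in which the median of the members was 0.63 to 0.89 and 0 or 1 other pathway gene was lower. DESeq2 called 1466 genes, 23 other pathway genes higher and 2 lower, and 557 genes passed on FPKM without filter. Other pathway genes called lower were 1 with no count filter and 2 with the block. S1pr2 was -1.11 with the block, -0.90 and -0.54 on FPKM with pseudocount 0.1 and 1 (-0.54 without filter), and -1.29 to -0.95 with a liver left out. Sign changes were limited to Irf3 (0.041 with upper-quartile factors, 0.13, 0.12 and 0.12 on FPKM, -0.058 to 0.020 with a liver left out, positive without S1PR2 shRNA liver 1 or scramble liver 3), Ifi35 (0.044, 0.13, 0.12 and 0.12 in the same fits, -0.079 to 0.040 with a liver left out, positive without S1PR2 shRNA liver 1 or scramble liver 1) and Ifnar2 (0.032, 0.031 and 0.031 on FPKM). The causes were not tested. The replicate numbers did not pair the samples (correlations of same-numbered deviations -0.062, 0.222 and -0.116). The replicate block left 13 members called, 11 of them shared, and 808 genes, without Ifit1 (adjusted p = 0.102), Oas1a (0.0507) and Apol9a (0.0673) and with Stat2 (0.0343) and Oasl1 (0.0476). Depth limits the members under 1 CPM.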

Other observations

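Chemokine transcripts induced by interferon, named after their values were seen, were concentrated in S1PR2 shRNA liver 1. Cxcl10 had 7.49, 1.04 and 0.703 CPM in S1PR2 shRNA livers and 0.123, 0.373 and 0 CPM in scramble livers (edgeR adjusted p = 0.120). None of its scramble values reached the count filter, so Cxcl10 entered the test through the S1PR2 shRNA livers alone. Cxcl9 had 12.1, 2.57 and 2.40 CPM against 1.35, 1.62 and 0.968 CPM in scramble livers (edgeR adjusted p = 0.140). The monocyte attractant Ccl2, below the count filter, had 4.70, 0.184 and 0.410 CPM against 0.245, 0 and 0.0605 CPM in scramble livers.

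Of 16 tested interferon-inducible GTPases 5 rose and 0 fell, with a median log2 fold change of 0.78, 0 lower at an unadjusted p under 0.05 and 0 lower by DESeq2 or limma-voom. They were Iigp1 (2.29-fold, edgeR adjusted p = 0.00954), Irgm2 (log2 fold change 1.51, edgeR adjusted p = 0.0241), Ifi47 (0.73, edgeR adjusted p = 0.0225), Gbp6 (1.30, edgeR adjusted p = 0.0290) and Gbp10 (3.65, edgeR adjusted p = 0.0257), of families that act on vacuoles of intracellular pathogens. Gbp10 had 3.04, 1.41 and 1.17 CPM in S1PR2 shRNA livers and 0.245, 0 and 0.182 CPM in scramble livers. No scramble value of Gbp10 or Gbp8 reached the count filter (0.588 CPM before TMM scaling), so both entered the test through the S1PR2 shRNA livers alone. The median of the GTPases keeps both. In MHC class I presentation 2 of 13 rose, the peptide-loading factor Tapbp (0.55, edgeR adjusted p = 0.0214) and the immunoproteasome subunit Psmb9 (0.61, edgeR adjusted p = 0.0452). Of 13 NF-kB targets 1 rose, Bcl3 (0.90, edgeR adjusted p = 0.0433), and Tnf and Il6 were below the count filter. Birc3 was lower without passing (-0.82, edgeR adjusted p = 0.0531). DESeq2 called 3 NF-kB targets higher and 1 lower, and limma-voom called 1 higher and 0 lower. For MHC class I presentation DESeq2 called 3 higher and limma-voom 2, with 0 lower. Over all genes tested 3.02% were called higher in edgeR. The differences between these lists were not tested.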
